A study of Mus musculus with 13 samples.

Results

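Conventional splenic CD4 T cells of the mouse were compared with 2 other CD4 T cell populations combined. Of 18649 genes in the deposited table, 14177 had a mean scaled count of at least 10 and were tested, and 1293 of these set the conventional cells apart from each of the other populations (9.12%). The 13 libraries of the series fall into 3 sorted groups, and all 13 were used. Conventional cells (here Tconv, 5 libraries) were CD4+ cells without surface PD-1 and without the GFP reporter of Foxp3. The PD1hi cells (3 libraries) were CD4+ and reporter-negative with a high level of PD-1 at the surface, and the regulatory cells (Treg, 5 libraries) were CD4+, reporter-positive and negative for PD-1. All groups therefore share the Foxp3 GFP reporter as a sort marker, and no treatment separates them. The labels give no strain, sex or age of the mice. The titles number experiments 3, 5 and 6, each with all 3 populations.

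Foxp3 is the transcription factor that defines Treg, which restrain other T cells. PD-1, encoded by Pdcd1, is an inhibitory receptor that appears after stimulation of the T cell receptor, and a high level of it marks follicular helper cells as well as chronically stimulated cells. Conventional cells that lack both markers can include naive T cells, and the share of these in Tconv was not tested. Naive T cells circulate between blood and lymphoid organs through receptors such as CCR7 and S1P1, and depend on the IL-7 receptor. They are held in a quiescent state by transcription factors such as those of the TCF/LEF, FOXO and KLF families.

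Libraries held between 15971126 and 24216463 reads in genes. Levels are scaled counts, that is counts divided by a size factor of the library, and are not corrected for gene length. Averaging the libraries that share an experiment and a population left 9 values, 3 per population, which are listed below in the order of experiments 3, 5 and 6. Differences are log2(scaled count + 1) values with their standard error (SE) from limma, for Tconv minus the mean of PD1hi and Treg. The second Treg library of experiment 3 and the PD1hi library of experiment 6 stood apart from the others of their group. Nothing in the labels says that libraries came from separate animals, so the spread behind the p-values is that between these samples and may be technical.

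The sorted genes came first. Pdcd1 was at 1075, 1287 and 1033 in Tconv, 39713, 33610 and 38792 in PD1hi and 1990.1, 1914 and 1962 in Treg. Foxp3 was at 291, 256 and 328 in Tconv, 121, 67.7 and 129 in PD1hi and 15895, 15373 and 16400 in Treg. Both followed the sort, which used these products, and are no finding of their own. Foxp3 in Tconv differed by -5.77 from Treg and by 1.50 from PD1hi. Cd4 did not separate Tconv from the other populations together (0.09 ± 0.12, adjusted p = 0.663), but its level was not equal across them. Its mean was 28070 in Tconv, 40740 in PD1hi and 17160 in Treg. Every Tconv library lay below all PD1hi and above all Treg libraries, so the opposite differences offset each other. The genes of the CD3 chains, Cd3e, Cd3d and Cd3g, which define T cells, were not past the test either.

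Against the mean of PD1hi and Treg, 1309 genes were higher in Tconv (9.23% of those tested) and 1744 were lower (12.3%), at a Benjamini-Hochberg adjusted p under 0.05. A gene was called apart from both when this contrast and each of the contrasts with PD1hi alone and with Treg alone passed that threshold in the same direction. That held for 500 genes higher in Tconv (3.53%) and 793 lower (5.59%). As a count without a test, all 3 Tconv values lay above the 6 others in 1308 genes (9.23%) and below them in 1346 (9.49%). The single contrasts share the Tconv values, so the count of genes apart from both is a description. Taken alone, the contrast with PD1hi called 1688 genes higher (11.9%) and 2012 lower (14.2%), and the contrast with Treg called 802 higher (5.66%) and 1237 lower (8.73%).

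The higher genes and the lower genes differed in size and in level. Among the 500 higher genes the median log2 difference was 0.997 and the median scaled count 1170, and 194 genes were at least 2-fold higher than in each other population. Among the 793 lower genes the median difference was -1.83 and the median scaled count 275.3, and 573 were at least 2-fold lower. The median level of all genes tested was 392.9. At least 8-fold, there were 40 higher and 79 lower genes. Scaling the libraries to equal totals moved the median of all genes by -0.10, after which 395 genes were higher and 907 lower than in both others.

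PD1hi and Treg themselves differed in 2346 genes (16.5% of those tested). Of the 500 genes higher in Tconv, 117 also differed between PD1hi and Treg, with the level in PD1hi farther from Tconv in 90 and the level in Treg farther in 27. Of the 793 lower genes, 234 differed between them, PD1hi being farther in 162 and Treg in 72. The counts of higher genes rested in part on single values: without the Tconv value of experiment 3 or 6, or the Treg value of experiment 5, 288, 312 and 330 genes were higher than in both.

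**Figure D1:**
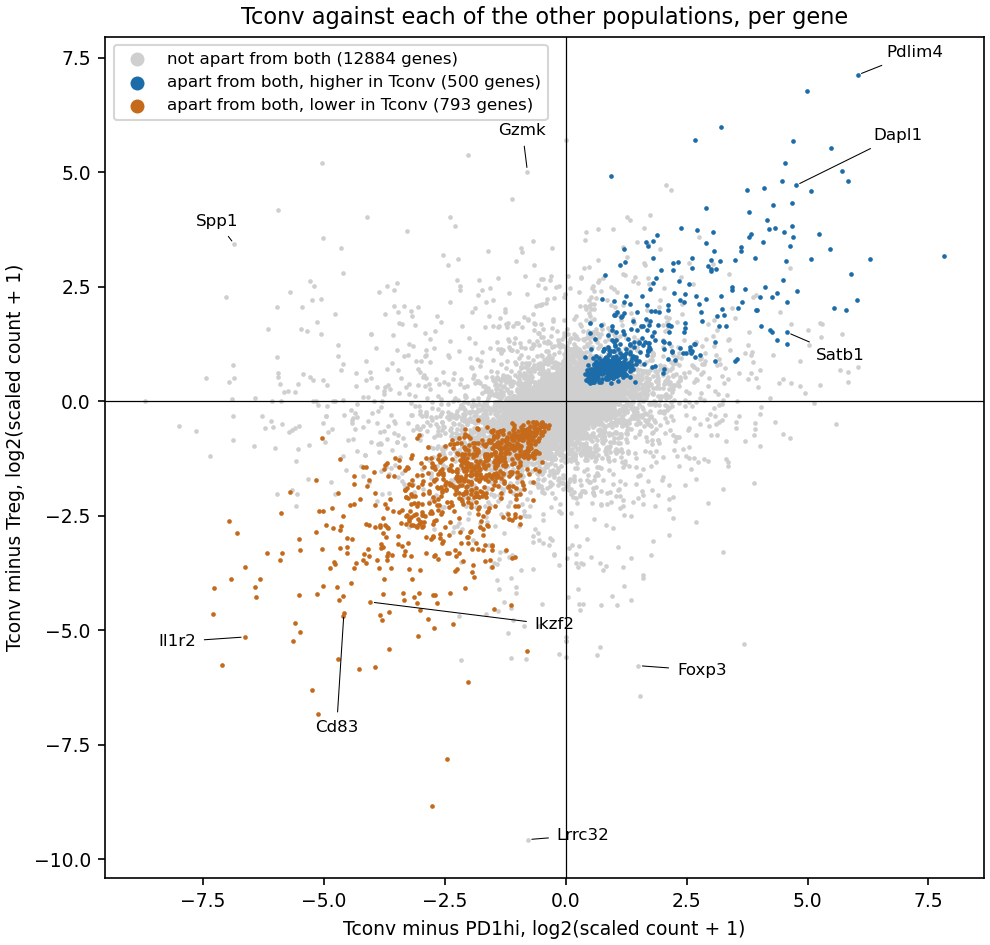
Log2 difference of Tconv from PD1hi (x axis) and from Treg (y axis) for each of the 14177 genes tested, on the log2(scaled count + 1) scale. Blue points are the 500 genes higher in Tconv than in both, orange points the 793 lower, grey points all others; Gzmk, Spp1, Foxp3 and Lrrc32 lie off the diagonal, where PD1hi and Treg differ.

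The 12 genes in this paragraph and the next 3 stood farthest above both other populations by the smaller of their 2 single differences. Dapl1 (ENSMUSG00000026989), a small protein related to a death-associated protein, was at 2025, 1468 and 1923 in Tconv, 69.7, 56.6 and 69.6 in PD1hi and 74.9, 38.6 and 105 in Treg. Vipr1 (ENSMUSG00000032528), a receptor of vasoactive intestinal peptide, was at 1075, 1030.2 and 983 in Tconv, 36.9, 64.7 and 58.7 in PD1hi and 36.4, 49.8 and 76.3 in Treg. In both genes every Tconv value was far above all 6 others, and the PD1hi and Treg values overlapped. Their differences were 4.74 ± 0.28 and 4.28 ± 0.26, and the highest adjusted p of the 3 contrasts was 2.35e-06 for Dapl1 and 3.21e-06 for Vipr1.

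Several of these genes encode membrane proteins. The lipid flippase Atp8b4 (ENSMUSG00000060131) was at 1242, 1044 and 1767 in Tconv, 72.8, 101 and 59.8 in PD1hi and 55.1, 30.1 and 81.9 in Treg. Slc16a5 (ENSMUSG00000045775), of the monocarboxylate transporter family, was at 1244, 1246 and 1846 in Tconv, 118, 83.9 and 97.8 in PD1hi and 87.2, 118 and 138 in Treg. Aqp9, a channel for water and glycerol, was at 460.4, 438 and 403 in Tconv, 25.6, 16.2 and 9.78 in PD1hi and 36.9, 11.3 and 60.3 in Treg. No Tconv value of these 3 genes overlapped with the other populations, and the differences were 4.38 ± 0.31, 3.74 ± 0.21 and 4.25 ± 0.46. Qpct, a glutaminyl cyclase that modifies the ends of secreted peptides, was at 510.4, 403 and 349 in Tconv, 28.7, 16.2 and 21.7 in PD1hi and 19.8, 30.1 and 44.3 in Treg, a difference of 3.98 ± 0.31.

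Pdlim4, a PDZ and LIM domain protein of the actin cytoskeleton, had the largest difference, 6.58 ± 0.83. It was at 800.3, 987 and 666 in Tconv, 62.5, 13.1 and 1.09 in PD1hi and 4.55, 1.88 and 11.3 in Treg, and the PD1hi value of experiment 3 was the highest outside Tconv. The GTPase activator Arhgap29 was at 709.7, 310.0 and 732 in Tconv, 16.4, 23.2 and 3.26 in PD1hi and 29.8, 0 and 52.9 in Treg, so that experiment 5 was the low one in both Tconv and Treg. Lypd6b, of the Ly6 family, was at 733, 718 and 973 in Tconv, 25.6, 41.4 and 13 in PD1hi and 9.15, 0 and 37.4 in Treg. The differences of Arhgap29 and Lypd6b were 5.51 ± 1.04 and 5.89 ± 0.85. The transcripts A530021J07Rik and AI646023 were lower throughout, with means of 144 ± 45.9 and 143 ± 24.7 (SD, n = 3) in Tconv and at most 11.1 in any PD1hi or Treg value. Their differences were 5.18 ± 0.64 and 4.86 ± 0.48.

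Fcgrt, the neonatal Fc receptor, was the weakest of the group. It was at 114, 142 and 129 in Tconv, 10.2, 15.2 and 0 in PD1hi and 23, 5.64 and 5.22 in Treg, a difference of 4.10 ± 0.79 with a highest adjusted p of 0.0168. That call was lost without any of 5 single values: the highest adjusted p was 0.0517, 0.0587 and 0.059 without the Tconv value of experiment 3, 5 and 6, and 0.0675 and 0.0663 without the Treg value of experiment 5 and 6. The other 11 genes kept their call without any single one of the 9 values.

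**Figure D2:**
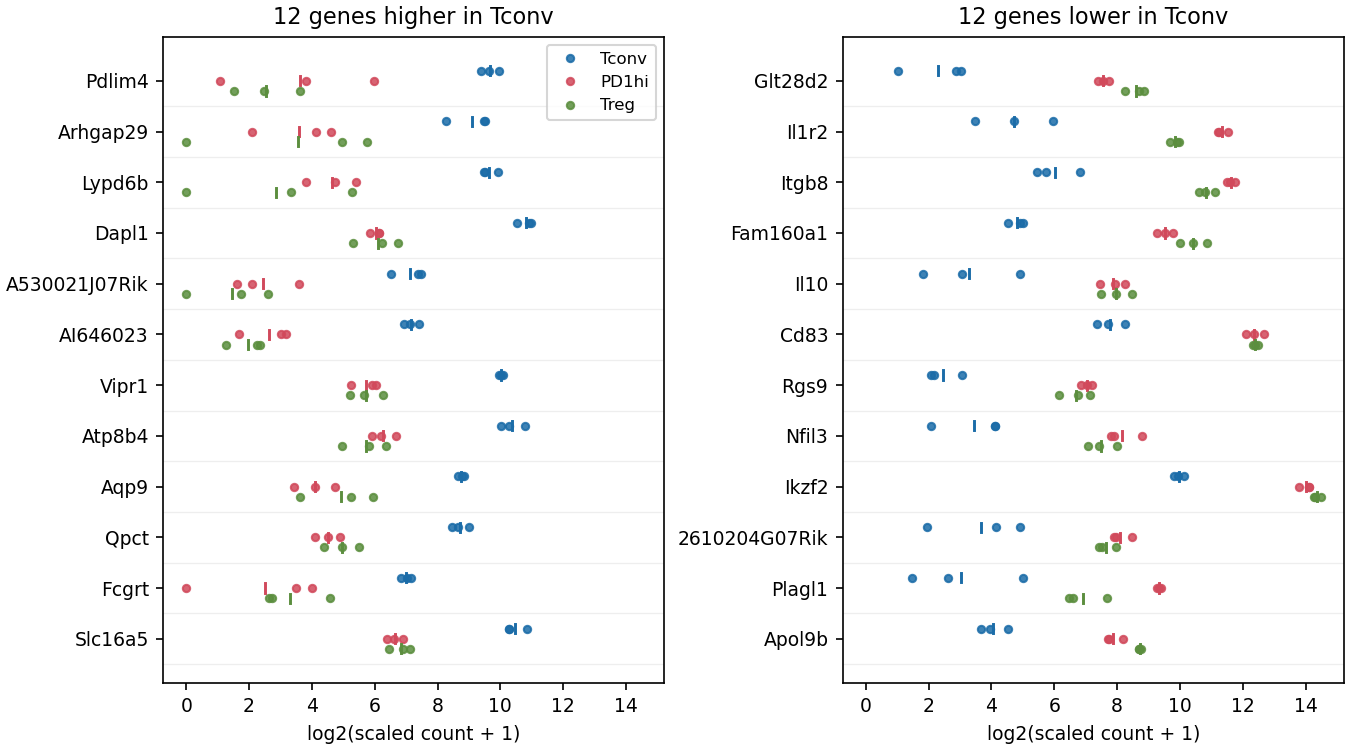
The 9 values of the 12 genes farthest above (left) and the 12 farthest below (right) both other populations, as log2(scaled count + 1). Each point is 1 experiment and each tick the mean of 3; the Tconv points do not overlap with the others in any row, and Plagl1 shows the widest gap between PD1hi and Treg among the genes on the right.

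The 12 genes farthest below both populations were chosen in the same way. Ikzf2 (ENSMUSG00000025997), the transcription factor Helios, was the most abundant, at 985, 1132 and 902 in Tconv, 17810, 14134 and 17888 in PD1hi and 20113, 19660 and 23054 in Treg. Cd83 (ENSMUSG00000015396), a surface protein of activated lymphocytes, was at 305, 164 and 210.0 in Tconv, 6506, 5205 and 4358 in PD1hi and 5690.0, 5191 and 5400.5 in Treg. Between PD1hi and Treg neither gene passed the test (adjusted p = 0.139 and 0.938). The differences of Tconv from their mean were -4.21 ± 0.12 and -4.61 ± 0.18. Itgb8 (ENSMUSG00000025321), the integrin chain that releases active TGF-beta, was at 113, 52.7 and 42.9 in Tconv, 3099, 3425 and 2894 in PD1hi and 1563, 1787 and 2204 in Treg. Its difference was -5.22 ± 0.25.

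A cytokine and a cytokine receptor belonged to this group too. Il1r2 (ENSMUSG00000026073), the decoy receptor that binds IL-1 without signalling, had the largest difference of the 12 lower genes, -5.89 ± 0.39. It was at 60.7, 25.5 and 10 in Tconv, 2980.4, 2449 and 2386 in PD1hi and 1002, 968 and 821 in Treg. Each PD1hi value exceeded each Treg value, and the highest of the Tconv values, in experiment 3, was far below both. Il10, the regulatory cytokine, was at 7.46, 28.9 and 2.57 in Tconv, 246, 305 and 174 in PD1hi and 354, 247 and 178 in Treg, with a difference of -4.66 ± 0.53 and the Tconv value of experiment 5 above the other Tconv values.

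Fam160a1 (ENSMUSG00000051000) was at 28.8, 21.9 and 31.4 in Tconv, 731, 884 and 615 in PD1hi and 1032, 1848 and 1379 in Treg, a difference of -5.17 ± 0.21. Glt28d2, a glycosyltransferase family member, was at 6.39, 7.27 and 1.02 in Tconv, 214, 166 and 186 in PD1hi and 308, 463 and 417 in Treg. Nfil3, a leucine zipper repressor, was at 3.2, 16.4 and 16.4 in Tconv, 221, 240.5 and 446 in PD1hi and 255, 170.2 and 134 in Treg. For Glt28d2 and Nfil3 the differences were -5.77 ± 0.41 and -4.39 ± 0.46, and Tconv held only 22 and 65 reads over its 5 libraries. The G protein regulator Rgs9, the apolipoprotein L gene Apol9b and the transcript 2610204G07Rik differed by -4.42 ± 0.34, -4.25 ± 0.24 and -4.20 ± 0.51. Apol9b has close relatives, among which reads may have been split.

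Plagl1, a zinc finger transcription factor, separated all 3 populations. It was at 30.9, 5.18 and 1.78 in Tconv, 615, 652 and 682 in PD1hi and 95.2, 203 and 87 in Treg, and PD1hi exceeded Treg (adjusted p = 0.0303). The difference of Tconv from both was -5.09 ± 0.60. These 12 calls held without any single one of the 9 values.

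Promoter sequences were read from RefSeq (GRCm38.p6) for genes with an entry, 250 bases before each start. Of the 500 higher genes 353 had an entry, and of the 793 lower genes 539. The letters searched on both strands were CTTTGA for TCF/LEF, GTAAACA for FOXO, TGANTCA for AP-1, TTCNNNGAA for STAT and TGTGGT for RUNX. The 3 promoters printed belong to genes among the 12 farthest above or below and hold such letters, which stand in capitals. Dapl1 lies on the plus strand (chr2:59484403-59484652), with the FOXO letters beginning 164 bases before the start. Il1r2 lies on the plus strand (chr1:40085843-40086092), with the STAT letters 111 bases before the start, and Fam160a1 on the minus strand (chr3:85746210-85746459), where TCF/LEF and STAT letters overlap at 217 and 219 bases.
Dapl1: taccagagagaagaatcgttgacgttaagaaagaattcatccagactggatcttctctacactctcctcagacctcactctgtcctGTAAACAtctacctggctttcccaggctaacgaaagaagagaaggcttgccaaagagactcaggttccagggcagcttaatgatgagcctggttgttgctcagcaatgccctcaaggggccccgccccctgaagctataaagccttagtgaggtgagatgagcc
Il1r2: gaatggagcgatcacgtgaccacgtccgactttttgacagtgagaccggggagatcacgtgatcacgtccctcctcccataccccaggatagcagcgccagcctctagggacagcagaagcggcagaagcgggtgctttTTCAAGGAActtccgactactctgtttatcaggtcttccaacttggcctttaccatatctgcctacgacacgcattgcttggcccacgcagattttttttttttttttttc
Fam160a1: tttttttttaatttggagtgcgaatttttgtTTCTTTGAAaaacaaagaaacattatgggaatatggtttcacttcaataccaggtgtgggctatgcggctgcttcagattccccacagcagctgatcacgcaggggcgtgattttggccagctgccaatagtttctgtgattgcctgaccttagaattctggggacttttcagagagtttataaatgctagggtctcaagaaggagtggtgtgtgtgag

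Shares are given for the gene groups beside those of all promoters. The FOXO letters occurred in 1.47% of 476 promoters of higher genes, 2.35% of 724 of lower genes, 2.13% of 11174 of all genes tested and 3.17% of all 32851 promoters. For TCF/LEF the shares were 9.87%, 12.2%, 10.7% and 13.8% in the same order. AP-1 letters occurred in 3.57%, 6.08%, 4.30% and 6.75%, STAT letters in 5.67%, 5.25%, 6.20% and 7.02%, and RUNX letters in 11.8%, 11.9%, 11.2% and 14.0%. These are counts of letters, given without a test.

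Genes of naive and quiescent T cells were higher in Tconv. Of 25 tested entries of this list (24 symbols, Tob2 having 2 identifiers), 21 were higher against both populations together and 0 lower, and 12 were higher than in each, beside 9.23% and 3.53% of all genes tested. For genes lower in Tconv the shares over all genes tested were 12.3% and 5.59%. The list counts below are to be read beside these shares. The median difference was 1.41, against 0.00 over all genes. Satb1, a chromatin organiser of T cells, was at 6711, 6579 and 7191 in Tconv, 269, 264 and 329 in PD1hi and 2258, 2352 and 2613 in Treg. The lymph node homing receptor Ccr7 was at 19218, 17994 and 20457 in Tconv, 1681, 2213 and 2068 in PD1hi and 4893, 5138 and 5498 in Treg. Lef1, a TCF/LEF factor, had means of 21505 ± 2834 in Tconv, 5726 ± 1051 in PD1hi and 6801 ± 312 in Treg (SD, n = 3). In bulk samples, fewer cells of a kind and less RNA per cell cannot be told apart.

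In Satb1 and Ccr7 the 3 populations formed 3 separate levels, Tconv highest and PD1hi lowest. Their differences were 3.04 ± 0.12 and 2.59 ± 0.11, and that of Lef1 was 1.79 ± 0.14. The IGF-binding protein gene Igfbp4 was at 2479, 3682 and 1958 in Tconv, 20.5, 36.4 and 45.7 in PD1hi and 387, 347 and 206 in Treg, a difference of 4.70 ± 0.29. Actn1, an actin crosslinker, and Rapgef4, an exchange factor for Rap, differed by 2.62 ± 0.13 and 2.92 ± 0.18. Bach2, a repressor of effector genes, S1pr1, the receptor for exit from lymphoid organs, and Itm2a differed by 1.63 ± 0.17, 1.46 ± 0.14 and 1.41 ± 0.14.

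Tcf7 and Foxo1 were called against both together but not against each. Tcf7, which encodes TCF1, was at 34944 ± 2625 in Tconv, 33786 ± 3354 in PD1hi and 5238 ± 338 in Treg, so that it exceeded Treg (adjusted p = 9.71e-08) and not PD1hi (0.814). Foxo1, a factor of quiescence, was at 5239 ± 927 in Tconv, 1954 ± 131 in PD1hi and 6211 ± 1056 in Treg, and its call against both together was lost without the Tconv value of experiment 3 (0.0871) or 6 (0.0712). The 4 members past no test were Tsc1, Tob1 and both entries of Tob2.

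Of 8 genes tested from recent thymic emigrants and antigen receptor recombination, Dntt was higher than in both. Dntt, the polymerase that adds bases at receptor gene junctions, was at 308, 229 and 313 in Tconv, 4.1, 4.04 and 2.17 in PD1hi and 63.9, 76.2 and 44.8 in Treg, a difference of 4.11 ± 0.31. The PD1hi libraries held 10 reads of it in all. Of the same list, Ccr9 and Cd8b1 were higher against the mean of both, Cd24a was lower, and Tox2 was lower than in each. Ccr9 was not higher than in Treg. Its libraries were at 595 to 859 in Tconv, 64.6 to 114 in PD1hi and 825.5 to 1065.5 in Treg.

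**Figure D3:**
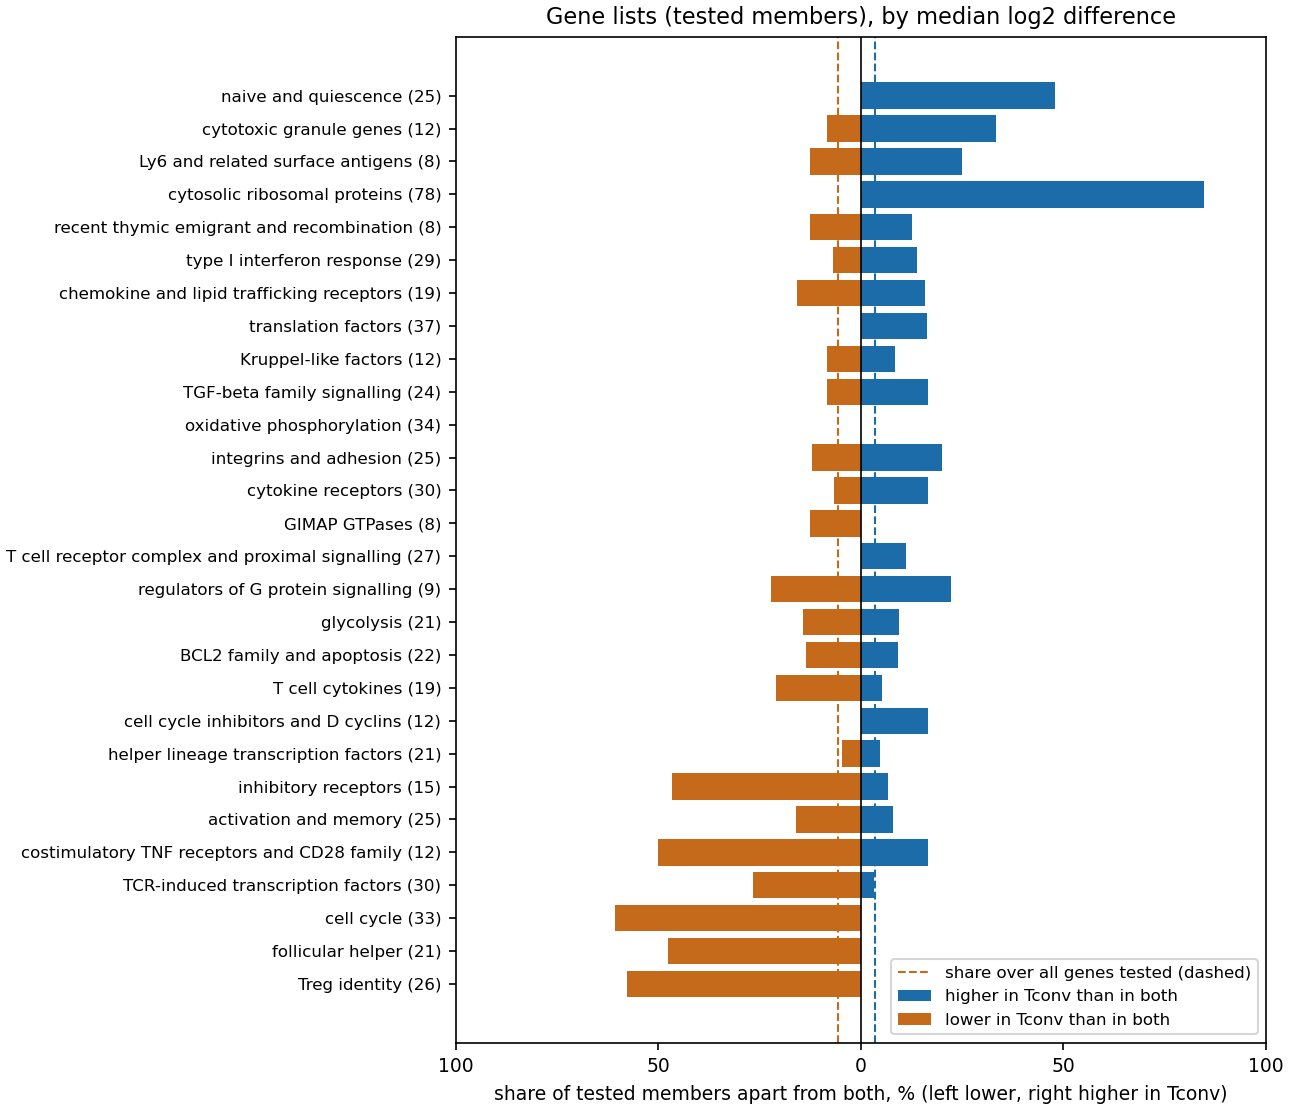
Share of tested members of each gene list that were higher (right) or lower (left) in Tconv than in both other populations, with the number tested in parentheses and the lists ordered by median difference. Dashed lines mark the shares over all genes tested, 3.53% higher and 5.59% lower; ribosomal proteins reach the highest share to the right, cell cycle and Treg identity genes the highest to the left.

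Many Treg identity genes were lower in Tconv, and some of these were lower than in the Foxp3-negative PD1hi cells as well. Of 26 Treg identity genes tested, 24 were lower against both together and 15 lower than in each, beside 12.3% and 5.59% of all genes. Treg were sorted on the Foxp3 reporter, so the part of this contrast that comes from Treg follows the sort and is no finding of its own. The median difference was -2.30, that from Treg alone -3.34 and that from PD1hi alone -0.92. Ctla4, the inhibitory receptor that competes for CD28 ligands, was at 479.5, 604 and 480.2 in Tconv, 3566, 3079.6 and 3485 in PD1hi and 10840, 9269 and 9287 in Treg. The IL-2 receptor chain Il2rb was at 8060.5, 8649.5 and 6815 in Tconv, 14655, 14852 and 13637 in PD1hi and 27841, 27483 and 27742 in Treg. Both were highest in Treg and intermediate in PD1hi, with differences of -3.47 ± 0.12 and -1.35 ± 0.11.

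Folr4, a folate receptor family member at the surface of Treg and anergic cells, was at 4190.1, 5322 and 4097 in Tconv, 18800, 20336 and 23188 in PD1hi and 20588, 19625 and 18663 in Treg. Nrp1, a coreceptor of semaphorins, had means of 2471 ± 351 in Tconv, 20647 ± 2142 in PD1hi and 16433 ± 1929.7 in Treg. Between PD1hi and Treg the adjusted p was 0.776 and 0.17, and Tconv differed from their mean by -2.16 ± 0.12 and -2.90 ± 0.13. Nt5e, the enzyme CD73 that makes adenosine, differed by -2.51 ± 0.20, Entpd1, the enzyme CD39 that acts before it, by -1.79 ± 0.17, and Penk, an opioid precursor, by -3.33 ± 0.19. Il2ra, the high-affinity chain of the IL-2 receptor, was lower in Tconv than in Treg (-5.53) and not than in PD1hi (0.64): it was at 535 ± 51.1 in Tconv, 344 ± 31.3 in PD1hi and 24686 ± 994 in Treg. Ecm1 was the member higher in Tconv against the mean of both (0.49 ± 0.12), being lowest in PD1hi, while Treg lay above Tconv. Its libraries were at 1251 to 1601 in Tconv, 209 to 235 in PD1hi and 3875 to 5208 in Treg. Ecm1 lost its call without the Tconv value of experiment 5 (adjusted p = 0.0569) or 6 (0.0853). Klrg1 was not past the test.

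Follicular helper genes were lower in Tconv as well: 18 of 21 against both together, 10 of 21 than in each (Pdcd1, which the sort used, among them), and 0 higher. The median difference was -1.59, that from PD1hi alone -3.08 and that from Treg alone -0.53. PD1hi were sorted on PD-1, a marker of follicular helper cells, so the part of this contrast from PD1hi is not independent of the sort. Cxcr5, the receptor for B cell follicles, was at 1400.2, 1717 and 1380.1 in Tconv, 19757, 15324 and 17411 in PD1hi and 3978, 4897 and 5117 in Treg. Maf, a transcription factor of helper cells, was at 1753, 2197 and 1672 in Tconv, 11039, 8838 and 12974 in PD1hi and 5859, 5718 and 5414 in Treg. The nuclear factor Tox2 was at 102, 86.3 and 45.3 in Tconv, 2909, 4419 and 4542 in PD1hi and 259.9, 496 and 195 in Treg. PD1hi was highest and Treg intermediate in all 3, and the differences of Tconv were -2.59 ± 0.13, -2.07 ± 0.14 and -3.84 ± 0.32. Icos, P2rx7, Cd200, Tox and Sh2d1a were lower than in each, with differences of -1.85, -1.59, -1.57, -1.39 and -1.10. Cebpa had 7 reads in Tconv and was at 27.2, 9.4 and 7.73 in Treg, and its call against both was lost without the Tconv value of experiment 6 (0.0953) or the Treg value of experiment 3 (0.105, highest adjusted p), with a pseudocount of 10 (0.18) and with voom (0.174). Bcl6, the master factor of these cells, passed the test against PD1hi (adjusted p = 5.88e-07) and not against Treg (0.811).

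Inhibitory receptors and their ligands were lower in many cases. Of 15 tested, 7 were lower than in both, Pdcd1 included, and 1, Lair1, was higher, beside 5.59% and 3.53% of all genes. Tigit, which binds CD155, was at 532, 852 and 465 in Tconv, 12256, 10511 and 8697 in PD1hi and 7122, 7070.2 and 6483 in Treg. Lag3, which binds MHC class II, was at 191, 482 and 107 in Tconv, 3033, 6059 and 4905 in PD1hi and 765, 1845 and 759 in Treg, with experiment 5 high in Tconv and in Treg. The differences of Tigit and Lag3 were -3.83 ± 0.18 and -3.31 ± 0.43. Pdcd1lg2, a ligand of PD-1, and Havcr2, which encodes TIM-3, were lower as well, with differences of -2.81 and -2.71. Havcr2 lost its call without the Tconv value of experiment 5 or 6 or the Treg value of experiment 3 or 5, up to a highest adjusted p of 0.0735. Lair1, an inhibitory receptor for collagen, was at 522, 425 and 505 in Tconv, 45.1, 41.4 and 28.3 in PD1hi and 86.2, 112 and 127 in Treg, a difference of 2.90 ± 0.23.

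Costimulatory receptors gave calls in both directions. Of 12 tested, 6 were lower than in both and 2 higher, beside 5.59% and 3.53% of all genes. Tnfrsf4 (OX40) was at 620.2, 1007 and 606 in Tconv, 5412, 5585 and 6518 in PD1hi and 11229, 8557 and 8344 in Treg. Tnfrsf9 (4-1BB) was at 569, 472 and 439 in Tconv, 1579, 1454 and 1664 in PD1hi and 6478, 5240.1 and 4948 in Treg. Icos, a CD28 relative, was at 3518, 3478 and 3512 in Tconv, 12279, 10515 and 10868 in PD1hi and 13423, 14242 and 14972 in Treg. None of the Tconv values of these 3 genes overlapped, and the differences were -3.34 ± 0.17, -2.58 ± 0.13 and -1.85 ± 0.10. Tnfrsf8 (CD30) and Tnfrsf1b (TNF receptor 2) differed by -4.01 ± 0.28 and -1.83 ± 0.24. The Tconv libraries of experiment 6, averaged in the fit, held Tnfrsf8 at 5.92 and 69.3, a spread that the SE does not show. All PD1hi and Treg libraries were at 340.92 or more. Higher than in both were Cd226 (1.31 ± 0.16), the activating receptor that shares its ligand with TIGIT, and Tnfrsf1a (0.76 ± 0.11), the other TNF receptor. These 2 calls were both lost without the Tconv value of experiment 3 or 6 or the Treg value of experiment 3 or 5. That of Tnfrsf1a was lost without any of 8 of the 9 values (highest adjusted p up to 0.153), under equal totals (0.116), with no minimum on the level (0.0635) and with first libraries only (0.146). Cd28 itself was not past the test.

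Transcription factors induced through the T cell receptor were mostly lower. Of 30 tested, 18 were lower against both together and 8 lower than in each, 2 were higher against both together, and the median was -0.83. The count of 18 became 11 without the Tconv value of experiment 6. Irf4 was at 371, 372 and 462 in Tconv, 1918, 1770.2 and 1278 in PD1hi and 1323, 1253 and 1438 in Treg. Egr2, an early growth response factor, was at 924, 749.8 and 848 in Tconv, 5660.4, 5210.5 and 3582 in PD1hi and 1568, 1560.2 and 1797 in Treg. Tconv lay below both others in each experiment, with differences of -1.88 ± 0.15 and -1.73 ± 0.15, and that of Batf, an AP-1 factor, was -1.36 ± 0.14. In the Ikaros family the direction differed between members: Ikzf2 and Ikzf3 were lower in Tconv (-4.21 and -1.61), while Ikzf1, which encodes Ikaros, was higher, with means of 21388 ± 2655 in Tconv, 10532 ± 2028 in PD1hi and 8387 ± 782 in Treg and a difference of 1.19 ± 0.14. The immediate early genes Fos, Jun, Junb and Fosb were not past the test.

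Cell cycle genes were lower in Tconv. Of 33 tested, 24 were lower against both together, 20 were lower than in each and 0 were higher, with a median of -1.29. The proliferation marker Mki67 was at 476, 511 and 367 in Tconv, 1864, 2024 and 2202 in PD1hi and 1668, 1258 and 1526 in Treg. The ubiquitin-conjugating enzyme of mitosis Ube2c was at 107, 89.1 and 28.2 in Tconv, 438, 456 and 336 in PD1hi and 374, 284 and 225 in Treg, and the spindle checkpoint kinase Bub1 at 38.4, 34.3 and 20.1 in Tconv, 177, 121 and 126 in PD1hi and 133, 95 and 101 in Treg. Every Tconv value was below every other value in these 3 genes, and their differences were -1.95 ± 0.15, -2.39 ± 0.36 and -2.01 ± 0.28. Tk1, Ccnb1 and Birc5 differed by -1.78, -1.79 and -1.72.

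Members of the replication machinery did not follow: Pcna, Mcm2, Mcm3, Mcm4 and Mcm7 were not past the test. The summed scaled count of the list was 23057 to 25688 in Tconv, 32386 to 47572 in PD1hi, where the library of experiment 6 was lowest, and 30251 to 34833 in Treg. When 1 of the 9 values was left out, 16 to 21 members were lower than in each, and 10 without experiment 3 or 13 without experiment 5. Among inhibitors of the cycle and D cyclins, Cdkn2d was higher in Tconv than in both, at 731, 819 and 704 in Tconv, 255, 273 and 171 in PD1hi and 379, 288 and 276 in Treg (difference 1.49 ± 0.19). Of the 12 genes of that list 3 were lower against both together, and 1 without the Tconv value of experiment 3 or 6.

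The most abundant of the genes higher in Tconv belonged to protein synthesis. The list of 78 cytosolic ribosomal protein genes was added after these values were seen. Of these, 75 were higher against both together and 66 higher than in each, and 0 lower, with a median of 0.81. Rplp0, of the ribosomal stalk, was at 68875, 65378 and 62497 in Tconv, 28708, 25903 and 30445 in PD1hi and 39316, 30399 and 30739 in Treg. Rps19 was at 38040, 37656 and 31689 in Tconv, 11655, 12551 and 13224 in PD1hi and 23219, 17669 and 17598 in Treg, and Rpl3 at 91649, 78092 and 79146 in Tconv, 41530, 36473 and 34681 in PD1hi and 58656, 45897 and 45811 in Treg. Each Tconv value exceeded each other value, and the differences were 1.10 ± 0.12, 1.20 ± 0.13 and 0.94 ± 0.13, the one of Rps19 being the largest of the list. The range was narrow, from 0.16 for Rps4y2, which had few reads, to 1.20, and Rps2, Rpl39 and Rps4y2 were the genes past no test.

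In reads, these genes took 7.47% ± 0.535 of a Tconv library, 4.08% ± 0.411 of a PD1hi library and 4.98% ± 0.837 of a Treg library (SD, n = 3). These shares did not overlap. The lowest Tconv library was at 6.665% (the second library of experiment 6) and the highest other library at 6.55%, the second Treg library of experiment 3. The 66 genes became 34 without the Tconv value of experiment 3, 35 without the Treg value of experiment 5 and 35 without that of experiment 6, with 71 to 76 of the genes higher against both together when any 1 value was left out. Without experiment 5 altogether, 58 were higher against both together and 3 than in each. Under equal totals of the libraries, 75 were higher against both together and 56 than in each, with a median of 0.70. Ribosomal protein genes have many near-identical processed copies, so the level of a single member is uncertain.

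Of 37 translation factor genes, a list also added after the values were seen, 11 were higher against both together, 6 than in each and 0 lower, with a median of 0.35. Eef1a1, which brings tRNA to the ribosome, was at 281410, 238490 and 253550 in Tconv, 145520, 131640 and 109710 in PD1hi and 171750, 162580 and 155550 in Treg. Eef2, which moves the ribosome along, was at 81057, 68598 and 74109 in Tconv, 37852, 41176 and 37230 in PD1hi and 56262, 45364 and 53479 in Treg. Their differences were 0.83 ± 0.14 and 0.74 ± 0.12. The count of 11 became 6 without the Tconv value of experiment 3 and 7 without that of experiment 6. The count of 6 became 1 without the Tconv value of experiment 3, the Treg value of experiment 5 or that of experiment 6, and 2 without the Tconv value of experiment 6, and both genes were among those lost in the first 3 cases. The call of Eef2 was also lost without the second Treg library of experiment 3 (highest adjusted p = 0.115). Initiation factors such as Eif4e, Eif4a1 and Eif5a were not past the test. Among 34 oxidative phosphorylation genes, 1 was higher against both together (Cox4i1, 0.41 ± 0.13, a call lost without any of 7 single values, up to adjusted p = 0.158) and 0 differed from each, with a median of 0.10.

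**Figure D4:**
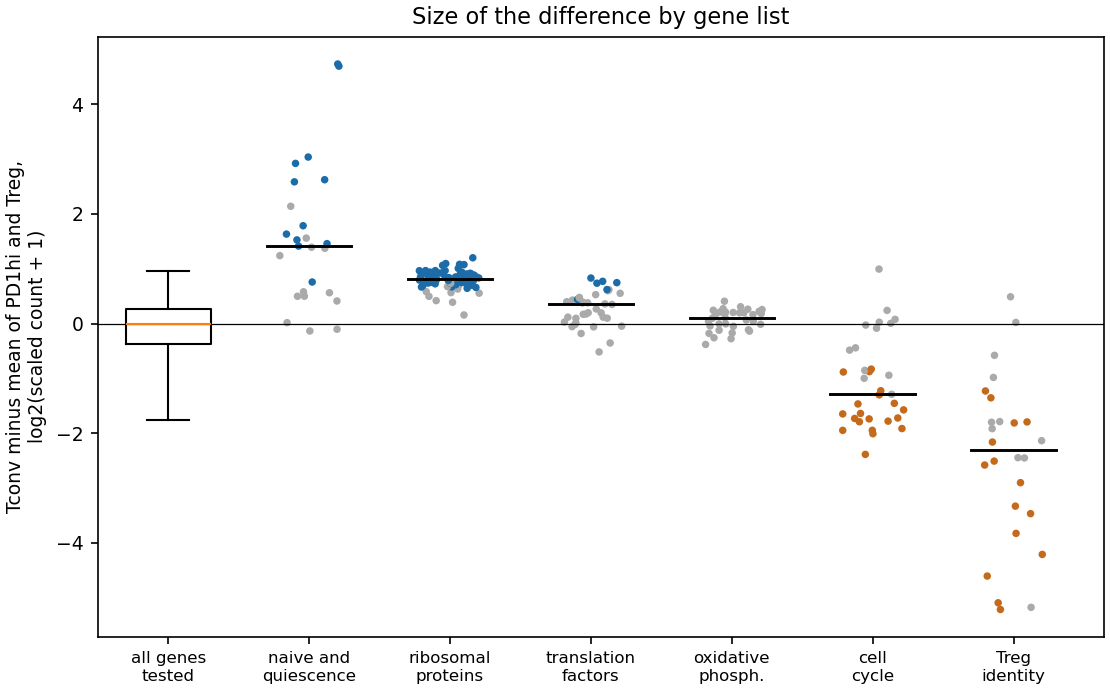
Difference of Tconv from the mean of PD1hi and Treg for the members of 6 gene lists, on the log2(scaled count + 1) scale, beside a box of all genes tested (median, quartiles and the range from the 5th to the 95th percentile). Blue and orange points are apart from both, grey points are not, and black lines are list medians: ribosomal proteins form a tight band at 0.81, oxidative phosphorylation genes lie at 0.10 and cell cycle genes spread to -2.39.

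Glycolysis genes gave calls in both directions, 2 of 21 higher and 3 of 21 lower than in each, beside 3.53% and 5.59% of all genes. Hif1a, the hypoxia-inducible factor, was lower in Tconv than in both, at 1674, 1543 and 1566 in Tconv, 12992, 12735 and 11352 in PD1hi and 5324, 6554 and 4396 in Treg (difference -2.35 ± 0.13). The lactate exporter Slc16a3 and the aldolase Aldoc were lower too, with differences of -2.10 ± 0.35 and -1.44 ± 0.19. Eno1, an enolase, was higher, at 18895, 19296 and 19799 in Tconv, 9342, 11282 and 9782 in PD1hi and 12717, 10475 and 12530 in Treg (difference 0.82 ± 0.11). Ldha, the lactate dehydrogenase, was the other higher gene (0.45 ± 0.10) and lost its call without any of 8 of the 9 single values, with a highest adjusted p up to 0.181.

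Cytokine receptors gave counts in both directions, 11 higher and 10 lower of 30 against both together, and 5 higher and 2 lower than in each. Over all genes tested, 9.23% were higher and 12.3% lower against both together, and 3.53% higher and 5.59% lower than in each. The 2 lower than in each were near that share. Il7r, the survival receptor of naive cells, was at 17691, 14271 and 19081 in Tconv, 3232, 5248 and 3433 in PD1hi and 8248, 8916 and 9458 in Treg. Tgfbr3, a coreceptor of TGF-beta, was at 2891, 2164 and 2269.6 in Tconv, 714, 1028 and 453 in PD1hi and 201, 356 and 298 in Treg. Il18rap, a chain of the IL-18 receptor, was at 1288, 2084 and 1521 in Tconv, 308, 375 and 209 in PD1hi and 463, 482 and 525 in Treg. The differences were 1.53 ± 0.16, 2.46 ± 0.25 and 2.08 ± 0.20. Tgfbr2 was higher by 0.68 ± 0.11 and Il12rb2 by 1.60 ± 0.25. The call of Tgfbr2 was lost without any of 7 single values, up to a highest adjusted p of 0.152, and under equal totals (0.224). The call of Il12rb2 against both was lost without the Tconv value of experiment 5 (highest adjusted p = 0.104) or 6 (0.0566) and without the PD1hi value of experiment 3 (0.0681) or 6 (0.0546), and the count of 5 became 3 without the Tconv value of experiment 5 or the PD1hi value of experiment 3. The count of 2 lower receptors, Il1r2 and Il2rb, became 5 without the PD1hi value of experiment 6 and 6 with the replicate block.

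Receptors of the TGF-beta family were among the called genes. Acvrl1, a type I receptor, was at 1104, 1004 and 1044 in Tconv, 6.15, 13.1 and 0 in PD1hi and 129, 105 and 114 in Treg, a difference of 5.50 ± 0.62 with PD1hi lowest. Of 24 genes tested, 4 were higher and 2 lower than in each, beside 3.53% and 5.59% of all genes. The lower genes were Tgif1, a corepressor (-0.89), and Acvr1, another type I receptor (-3.58); their count was between 1 and 4 when 1 value was left out, and 1 with the replicate block, where Acvr1 lost its call (highest adjusted p = 0.0598). Acvr1 also lost it with a pseudocount of 10 (0.195), with duplicateCorrelation (0.126), with voom (0.103) and without any of 6 single values (up to 0.146). The Smad genes Smad1, Smad3, Smad4 and Smad5 were not past the test. Of 25 integrins and adhesion genes, 5 were higher and 3 lower than in each, beside the same shares of all genes. Itgb3 and Itga1 were higher by 2.96 ± 0.29 and 2.56 ± 0.38, and Pecam1 and Icam2 by 0.81 ± 0.14 and 0.85 ± 0.13. Beside Itgb8 the lower genes were Itgav (-1.70 ± 0.17) and Alcam (-2.93 ± 0.28).

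Of 19 chemokine and lipid receptors, 3 were higher and 3 lower than in each, beside 3.53% and 5.59% of all genes. With the replicate block, 5 were higher. Cxcr6, a receptor of tissue-resident and innate-like lymphocytes, was at 8201, 8533 and 7208 in Tconv, 2362, 2366 and 1781 in PD1hi and 395, 649 and 1044 in Treg. Ccr8, known from tissue Treg, was at 131, 83.9 and 57.6 in Tconv, 281, 240.5 and 234 in PD1hi and 964, 676 and 699 in Treg. Their differences were 2.76 ± 0.24 and -2.34 ± 0.24; Ccr7 and S1pr1 (above) were the other higher receptors. Cx3cr1 was higher against both together (2.90 ± 0.55) and not past the test against PD1hi (adjusted p = 0.065).

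Of 19 T cell cytokine genes, 4 were lower and 1 higher than in each, beside 5.59% and 3.53% of all genes. Csf1, the macrophage growth factor, was at 88.4, 218 and 94.2 in Tconv, 1759.7, 2530.0 and 2019.9 in PD1hi and 934, 1450.1 and 1110.3 in Treg. Ebi3, a subunit of IL-27 and IL-35, was at 49, 34 and 33.7 in Tconv, 140.4, 176 and 171 in PD1hi and 360.0, 367 and 218 in Treg. Fasl, the ligand of the death receptor Fas, was higher, at 1002, 1098 and 996 in Tconv, 510.4, 584 and 292 in PD1hi and 203, 217 and 276 in Treg. The differences were -3.65 ± 0.27, -2.51 ± 0.24 and 1.69 ± 0.21. Tnfsf11, the RANK ligand, was lower (-2.36), and its call was lost without the Tconv value of experiment 6 (highest adjusted p = 0.0695) or the Treg value of experiment 3 (0.0693) or 5 (0.0718). Il21, the cytokine of follicular helper cells, was not past the test against both together, with means of 104 ± 47.7 in Tconv, 3296 ± 683 in PD1hi and 1.77 ± 0.927 in Treg.

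Cytotoxic genes were higher in Tconv in part, 7 of 12 against both together and 4 than in each, beside 9.23% and 3.53% of all genes. The summed level of the list was not higher: it was 17021 to 19680 in Tconv, 26053 to 29787 in PD1hi and 18140 to 23187 in Treg. The median difference of the 12 genes was 1.29. The pore-forming protein Prf1 was at 1492, 1453 and 1791 in Tconv, 199, 348 and 213 in PD1hi and 550.2, 735 and 714 in Treg. Klrk1, which encodes the receptor NKG2D, was at 603, 511 and 672 in Tconv, 57.4, 90.9 and 75 in PD1hi and 56.4, 90.3 and 98.5 in Treg, and Klrc1, of the NKG2 family, at 563, 345 and 392 in Tconv, 111, 77.8 and 84.8 in PD1hi and 66, 24.5 and 84.3 in Treg. The differences were 1.96 ± 0.19, 2.94 ± 0.24 and 2.62 ± 0.35, with no overlap between Tconv and the rest. Srgn, the granule proteoglycan, was lower (-1.36 ± 0.12), and granzyme genes Gzma and Gzmb were not past the test.

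Markers of NK cells, CD8 T cells and innate-like T cells moved with these genes. Of 6 tested, 5 were higher against both together and 2 than in each (Klrk1, which is in both lists, and Klrb1c). Over all genes tested these shares were 9.23% and 3.53%. Eomes was 1 of the 5, with means of 175.6 in Tconv, 190.0 in PD1hi and 34.87 in Treg, so Tconv was not above PD1hi. The summed level of the 7 listed markers in the table was 2375 to 2419 in Tconv, 619.7 to 791.2 in PD1hi and 484.3 to 675.2 in Treg. Klrb1c, which encodes NK1.1, was at 1032, 1003 and 918 in Tconv, 362, 244 and 179 in PD1hi and 109.7, 109 and 205 in Treg, a difference of 2.41 ± 0.25. Zbtb16, the factor PLZF of innate-like T cells, and Cd8b1 were higher against both together by 2.64 ± 0.76 and 1.46 ± 0.27. The call of Zbtb16 was lost without any Tconv value or the PD1hi value of experiment 5, up to adjusted p = 0.109. Cd8a, which defines CD8 T cells, was near 0 throughout, with 32 reads in Tconv, 19 in PD1hi and 36 in Treg. The NK receptor gene Ncr1 was not past the test, and none of these markers had 0 reads in any population. The count of 5 became 3 without the Tconv value of experiment 3 or 5. The part of such cells in the cytotoxic genes was not tested.

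**Figure D5:**
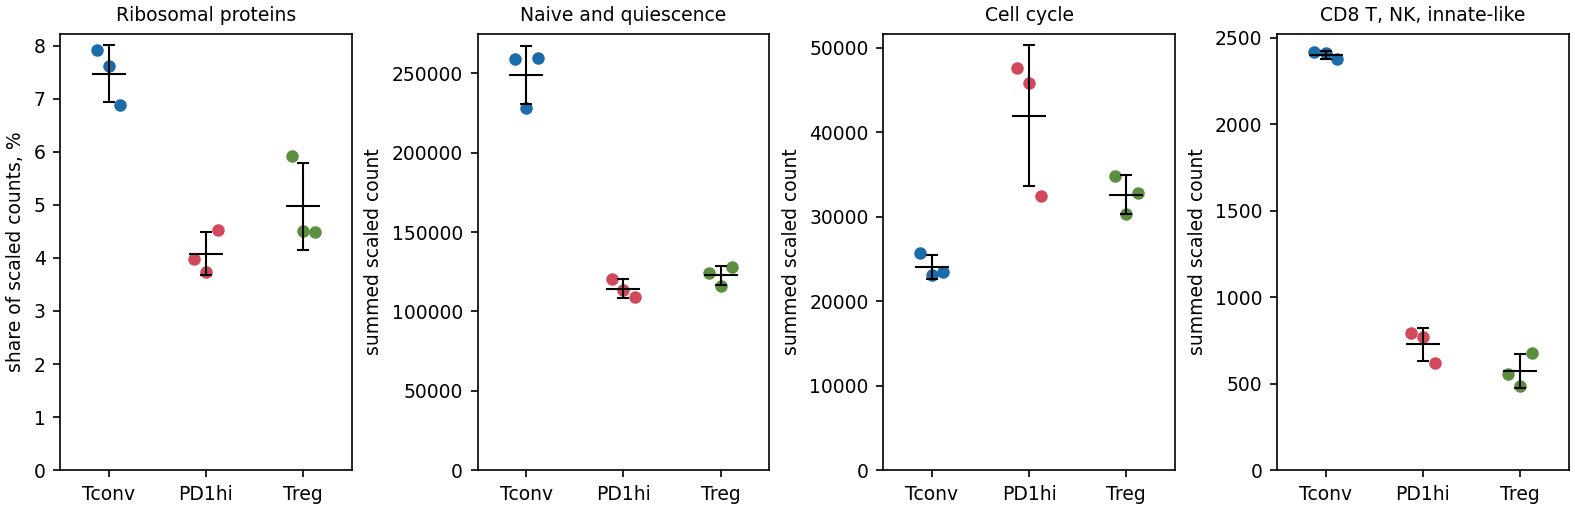
Share of scaled counts in ribosomal protein genes and summed scaled counts of 3 gene lists, per value. Points are experiments 3, 5 and 6 from left to right, lines and bars the mean ± SD of 3 values; Tconv is above both other populations in all panels but the cell cycle, where it is below, and the PD1hi point of experiment 6 is lowest of its group there.

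Interferon-response genes were higher in part: 13 of 29 against both together and 4 than in each, beside 9.23% and 3.53% of all genes. Lower were 3 and 2, beside 12.3% and 5.59%. The median was 0.44, that against PD1hi alone 0.67 and that against Treg alone 0.03. The summed level of the list was 90723 to 100850 in Tconv, 60895 to 70296 in PD1hi and 115350 to 126110 in Treg, the highest. Oas2, which senses double-stranded RNA, was at 324, 387 and 535 in Tconv, 19.5, 5.05 and 5.44 in PD1hi and 46, 20.7 and 64 in Treg, a difference of 4.39 ± 0.46. Irf7, the interferon regulatory factor, was at 3017, 3617 and 3840.4 in Tconv, 1502, 1893 and 1692 in PD1hi and 1846, 2049 and 2129.8 in Treg, a difference of 0.92 ± 0.12. Oas1a, a relative of Oas2, was lower, at 432, 582 and 527 in Tconv, 933, 837 and 878 in PD1hi and 1050.4, 1034 and 1016 in Treg (-0.90 ± 0.13). The 4 higher genes became 2 without the Tconv value of experiment 3 or 6 or the Treg value of experiment 5, the genes lost being Ddx58 and Oasl1. Of the 3 lower genes 1 was left without the Tconv value of experiment 6. Genes of the Oas family may share reads. Ifit3, Ifit1 and Ifit2 were higher against both together by 1.41, 0.90 and 1.16, and were not past the test against Treg.

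Of 27 antigen receptor signalling genes tested, 7 were higher and 4 lower against both together, beside 9.23% and 12.3% of all genes, and 3 were higher than in each, beside 3.53%, among them Dgka, a kinase that removes diacylglycerol, by 0.77 ± 0.13. These 3 calls were not stable: without the Tconv value of experiment 6 the count was 0, and without the Tconv value of experiment 3, or the Treg value of experiment 5 or 6, it was 1. The 4 lower genes became 1 without the Tconv value of experiment 3 or 6 and 7 without the PD1hi value of experiment 6. Of 22 genes of the BCL2 family and apoptosis, Fasl (above) was higher than in both, while Mcl1 and Bcl2l1 were not past the test. Among surface antigens, Ly6c2 was higher, at 695, 775 and 649 in Tconv, 113, 111 and 166 in PD1hi and 234, 133 and 122 in Treg (2.31 ± 0.23), and may share reads with its near-identical neighbour Ly6c1.

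Regulators of G protein signalling went in both directions. Rgs16 was at 68.2, 68.8 and 33.3 in Tconv, 2494, 2290.5 and 2689.6 in PD1hi and 414, 704 and 494 in Treg, and Rgs11 at 583, 658 and 684 in Tconv, 115, 131 and 100.0 in PD1hi and 199.8, 188 and 244 in Treg. Rgs16, which damps chemokine receptor signals, was lower in Tconv, with a difference of -4.38 ± 0.25, and Rgs11 was higher, with one of 2.04 ± 0.17. Id2, an inhibitor of E proteins, was also higher in Tconv, at 12660, 13985 and 12384 in Tconv, 7134, 9553 and 6721 in PD1hi and 3031, 2627 and 2617 in Treg (1.50 ± 0.13), whereas its relative Id3 was lower against both together (-0.99 ± 0.15).

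Ighm, the IgM heavy chain, was lower in Tconv than in both. It was at 22265, 20081 and 22944 in Tconv, 33832, 37270 and 38837 in PD1hi and 64321, 69344 and 61446 in Treg, a difference of -1.17 ± 0.11. Of 5 B cell markers tested, 2 were lower and 0 higher, and the summed level of the 10 listed was 246.1 to 434.8 in Tconv, 1707 to 2337 in PD1hi and 915.4 to 1164 in Treg. Most of that sum was Cd22 in PD1hi (1675 ± 243) and Cd79b in Treg (629 ± 83.8), while Pax5, which defines B cells, had 3 reads in Tconv, 19 in PD1hi and 3 in Treg. Of 6 plasma cell markers, 4 were lower, with summed levels of 3050 to 3635, 5840 to 9153 and 8100 to 10840. The share of lower genes over all genes tested was 12.3%. Irf4, Prdm1 and Xbp1 of that list are also transcription factors of T cells. The part of B lineage cells in the level of Ighm was not tested.

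Markers of the remaining cell types are counted beside 9.23% higher and 12.3% lower of all genes tested, or 21.5% in either direction. Of 9 myeloid and dendritic markers, 2 were higher (Itgam and Xcr1) and 1 lower (Cst3), with 0 higher without the Tconv value of experiment 3 and with Cst3 lost without any of 5 values (up to adjusted p = 0.190), and the summed levels overlapped, at 1387 to 1790 in Tconv, 1758 to 2174 in PD1hi and 1632 to 2571 in Treg. Of 2 erythroid markers tested, 0 were past the test. The 7 CD4 T cell markers summed to 112600 to 118700, 141400 to 145700 and 106500 to 110000.

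Some calls against both populations together were made by 1 of them alone. The granzyme gene Gzmk was at 650.0, 1347 and 729 in Tconv, 1557, 2041 and 1045 in PD1hi and 18.6, 33.9 and 26.8 in Treg, so it separated Tconv from Treg (adjusted p = 1.79e-06) and not from PD1hi (0.102). St6galnac1, a sialyltransferase, did the same, with 6 reads in Treg. The sorting receptor Sorcs2 was at 194, 135 and 213 in Tconv, 6.15, 6.06 and 0 in PD1hi and 337, 197 and 235 in Treg and separated Tconv from PD1hi alone. Among lower genes, Lrrc32, the anchor of latent TGF-beta on Treg, was at 5.33, 4.27 and 11.6 in Tconv, 10.2, 15.2 and 10.9 in PD1hi and 5260.1, 6132 and 5670.4 in Treg, and the difference came from Treg. The neuropeptide gene Gal had 0 reads in Tconv and in Treg and was at 471, 304 and 490.3 in PD1hi.

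In 3 further genes of this kind Tconv lay between the other populations. Spp1, a secreted phosphoprotein, was at 40.5, 34.1 and 32.8 in Tconv, 3979, 4215 and 4514 in PD1hi and 6.77, 0 and 4.1 in Treg. Esm1, a secreted proteoglycan, was at 83.1, 193 and 105 in Tconv, 499, 577 and 406 in PD1hi and 5.58, 0 and 2.69 in Treg. Fbn2, a microfibril protein, was at 19.2, 4.45 and 1.87 in Tconv, 859, 786 and 1018 in PD1hi and 0.468, 0 and 0.937 in Treg, with 3 reads in Treg. The calls against both together of Spp1 (adjusted p = 0.0299) and Esm1 (0.0349) were lost without several single values, up to adjusted p = 0.104 for Spp1 without the Tconv value of experiment 6 and 0.162 for Esm1 without that of experiment 5. With the replicate block Esm1 lost its call (0.0602). The call of Fbn2 was lost without the Tconv value of experiment 6 (0.0536).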

How the data were processed

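The deposited table holds scaled counts for 18649 genes in 13 libraries. RNA was extracted with Trizol, depleted of ribosomal RNA and sequenced on an Ion Torrent instrument, per the labels' protocols. Picard, HTSeq 0.5.4 and limma are named, with the builds mm9, hg19 and GRCh37 and no role for each, per the submitters' processing notes. Aligner and use of strand were not given in the sources used here. A deposited signal is a read count divided by a constant of the library plus 1: after subtraction of 1, 100% of the values were whole multiples of that constant within 0.001 reads. The values hold 15971126 to 24216463 reads in genes per library, which limits precision for genes with few reads. All columns belong to these samples.

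After subtraction of 1, the 4 pairs of libraries titled as replicates were averaged. These pairs differed by more than sampling noise, with chi-square per degree of freedom of 7.77 to 73.5, against 15.4 to 92.7 between experiments. Genes with a mean of at least 10 were fitted on log2(scaled count + 1) with limma 3.58.1 in R 4.3.3 (empirical Bayes with a trend, no experiment term), for Tconv minus the mean of PD1hi and Treg and for each pair of populations. P-values were Benjamini-Hochberg adjusted over 14177 genes, and SE are limma's. The fit was tested on simulated data. Figures were drawn with matplotlib. Motif letters were matched by script.

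The experiment number in the titles pairs the populations. Deviations of same-numbered values from their population means correlated at -0.07 to 0.298, over 0.1 in 6 of 9 pairs, and those of different numbers at -0.274 to 0.125. Experiment as a replicate block was an alternative, as were pseudocounts of 0.5 and 10, a minimum of 50 or none, equal totals, single libraries, duplicateCorrelation, limma voom on recovered reads, and leaving out each value or experiment.

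The members and lists were chosen with earlier results of these data known. Named genes were those of the sort and Cd4, the 12 in each direction with the largest smaller single difference (mean of at least 100 in the higher populations), up to 5 called members of each list beside members needed to show the contrary, 4 in each direction that differ most between PD1hi and Treg, and the 5 in each direction with the highest level. Further list members, such as Lef1, Bach2, Nrp1, Batf and Cd226, were named after their values were seen. Some list members are not reported here.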

Additional observations from a re-analysis of the deposited data

Results flagged for a closer look

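In 3 of 54 sets of 5 library values, for Pdcd1, Foxp3, Cd4 and the 12 genes farthest above and 12 farthest below, in the Tconv or Treg libraries, 1 library lay far from the other 4. For 5 independent values chance gives about 1 in 20 such sets, and some of these libraries share an experiment. Vipr1 was at 905.7 in the first Tconv library of experiment 6 and at 1029 to 1075 in the other 4. Plagl1 was at 30.9 in the Tconv library of experiment 3 and at 0 to 6.40 in the others. In Treg, Plagl1 was at 203.1 in the library of experiment 5 and at 77.6 to 103 in the others. Each of these values lay on the same side of the other populations as the rest of its group.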

How the results depend on the processing

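With experiment as a replicate block, 1426 genes were higher and 1875 lower in Tconv against the mean of PD1hi and Treg, and 540 and 883 than in each, against 1309, 1744, 500 and 793 without it; it removed the call of Acvr1 as apart from both and those of Esm1, Cst3 and Xcr1 against both together, and no other call of a gene described here. Under the other settings that kept all values, 1011 to 1538 genes were higher and 1452 to 2050 lower against both together, and 395 to 606 and 700 to 907 apart from each, all within 1.5 times the reported counts. The lowest higher counts (1011 and 395) came with equal totals, which took the share of higher genes among those called from 42.9% to 33.0%, and from 38.7% to 30.3% for genes apart from both. Cd4 then changed sign, from 0.09 to -0.00995, not past the test in either case (adjusted p = 0.967 with equal totals).

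Leaving out 1 value or 1 experiment gave 669 to 1571 genes higher and 1053 to 1979 lower against both together, 172 to 638 higher and 435 to 945 lower than in each, and 1316 to 2579 between PD1hi and Treg. The lowest counts came without experiment 3 or 5, which leaves 2 values per population. Of 153 named genes apart from both, 97 kept that call without experiment 5, 106 without experiment 3 and 122 to 151 without any single value. Among those lost only with a whole experiment were Arhgap29, Plagl1, Lag3, Il7r, Irf7, Egr2, Eno1, Acvrl1, Cdkn2d, Rpl3 and Rps19; the cause was not tested. Depth limits genes with few reads in a population, such as Glt28d2 in Tconv.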

Other observations

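Genes of activation and memory were mixed. Of 25 tested, 12 were lower and 5 higher in Tconv against both together, beside 12.3% and 9.23% of all genes. Than in each, 4 were lower and 2 higher, beside 5.59% and 3.53%. The 4 became 2 without the Tconv value of experiment 3 or 6. S100a4, a calcium-binding protein of memory cells, was at 143, 206 and 152 in Tconv, 384, 487 and 515 in PD1hi and 681, 357 and 377 in Treg, a difference of -1.46 ± 0.23 with no overlap between Tconv and the rest. Anxa1, an annexin of activated cells, was higher in Tconv, at 497, 377 and 344 in Tconv, 58.4, 68.7 and 47.8 in PD1hi and 304, 136 and 190.0 in Treg (1.89 ± 0.26), and its call was lost without any of 7 single values, up to a highest adjusted p of 0.182. Cd38, an enzyme that uses NAD, was lower (-1.37 ± 0.30), and its call was lost without the Tconv value of experiment 3 or 6 or any Treg value, up to 0.0918. Cd44, the memory marker, was lower against both together (-0.86 ± 0.11), and Cd69, an early activation marker, was not past the test.

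Of 21 helper lineage factors, 3 were higher and 6 lower against both together, beside 21.5% of all genes called in either direction, and the 3 became 1 without the Tconv value of experiment 5. Of this list, Id2 was higher and Runx2 lower than in each, Runx2 being at 112, 155 and 162 in Tconv, 233, 273 and 353 in PD1hi and 338, 328 and 336 in Treg (-1.11 ± 0.19). Tbx21 and Gata3, which direct helper lineages, were not past the test. Of 12 Krüppel-like factors, 3 were higher and 2 lower against both together, beside 9.23% and 12.3% of all genes. The 2 became 1 without any of 6 single values. Klf2, a factor of quiescence and homing, was higher against both together (1.37 ± 0.24), and Klf7 and Klf12 were apart from both with calls that single values removed, up to a highest adjusted p of 0.112 for Klf7 and 0.113 for Klf12. Of 8 GIMAP GTPases, lymphocyte survival proteins, 0 were higher and 2 lower against both together, beside the same shares. Gimap5 was the one lower than in each (-0.57 ± 0.11), a call lost without the Tconv value of experiment 3 or 6 or any Treg value, up to 0.149.

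Of 8 Ly6 and related antigens, 5 were higher and 1 lower against both together, with 3 higher without the Tconv value of experiment 5 or 6. The shares over all genes, for these and the next 2 lists, were 9.23% higher and 12.3% lower against both together. Than in each they were 3.53% and 5.59%. Thy1, a pan-T cell antigen, was at 2022, 2160.3 and 1814 in Tconv, 658, 957 and 1245 in PD1hi and 1220.4, 1145 and 971 in Treg (0.98 ± 0.18), a call lost without the Tconv value of experiment 3 or 5 or the Treg value of experiment 6, up to a highest adjusted p of 0.0716. Of 22 genes of the BCL2 family and apoptosis, 4 were higher and 7 lower against both together, and 2 and 3 than in each. The 4 became 2 without the Tconv value of experiment 3 or 6. The 3 lower than in each became 1 without the Tconv value of experiment 6 or the Treg value of experiment 3, and the 2 higher became 1 without the Tconv or Treg value of experiment 3 or 5. Pmaip1, the BH3-only protein Noxa, was lower (-1.44 ± 0.30) and lost its call without the Tconv value of experiment 6 (0.0689) or the Treg value of experiment 3 (0.0537). Of 9 regulators of G protein signalling, 2 were higher and 4 lower against both together, and 2 and 2 than in each. The 2 lower became 1 without the Tconv value of experiment 3 or 6 or any Treg value, and 4 with the replicate block. The 2 higher became 1 without the Tconv value of experiment 3 or the Treg value of experiment 6.

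Among the most abundant genes lower in Tconv, Cd82, a tetraspanin, was at 10598, 10602 and 9222 in Tconv, 35460, 36444 and 35120 in PD1hi and 13256, 14776 and 12355 in Treg. Tconv was below all other values, and PD1hi was far above Treg. The difference from both was -1.11 ± 0.11, and that from Treg alone -0.41. The call against Treg passed narrowly (adjusted p = 0.0433) and was lost without any of 8 of the 9 values, up to 0.196. Rpl4, among the most abundant higher genes, was at 94352, 81643 and 88096 in Tconv, 43500, 40091 and 35699 in PD1hi and 62000, 51268 and 54916 in Treg (0.90 ± 0.12).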
